A study of Mus musculus with 9 samples.

Results

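Clustered H3K27ac domains are stretches of the genome where several separate H3K27ac regions, all away from gene ends, lie close together. They were taken from CUT&Tag peak lists of mouse LSK cells, the Lin- Sca-1+ c-Kit+ bone marrow gate that holds stem and early progenitor cells. Peaks of the control and the Dek-deleted library were pooled and overlapping peaks merged into 16611 regions on chromosomes 1 to 19. Regions within 1 kb of an end of a protein-coding gene (8331) and other regions that overlapped any DEK or H3K9ac peak (681) were removed. The 7599 remaining distal regions were stitched where the gap between neighbours was at most 12.5 kb. Stitching gave 6809 single regions, 322 groups of 2, 21 groups of 3 and 9 groups of 4 or more. The 30 groups of at least 3 regions are the domains described here, and they hold 146 regions, 1.92% of the distal regions.

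H3K27ac is the acetylated form of lysine 27 on histone H3, a mark of active enhancers and promoters. Enhancers of genes that define a cell type often lie in clusters, and stitching neighbouring H3K27ac regions is the usual way to find such clusters. Clusters of marked regions can also fall on tandem gene copies, among them the 5S ribosomal RNA and transfer RNA genes that RNA polymerase III transcribes in every cell.

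The study asked where DEK, a chromatin-bound protein, sits in stem cells and how histone marks differ once it is lost. Control mice carried a floxed Dek gene on both alleles and no Cre (Dek fl/fl, called fl), and deleted mice carried the same alleles with Tie2-Cre (Dek fl/fl, Tie2-Cre, called cKO). All were C57BL/6 mice of 12 weeks, both genotypes share the floxed alleles, and only cKO carries Cre. Tie2-Cre is active in endothelial cells and in the blood lineage that descends from them, so the deletion is not limited to LSK cells and begins before birth. H3K27ac and the promoter mark H3K4me3 were each profiled in 1 fl and 1 cKO library of about 50000 LSK cells. H3K9ac (1 fl and 1 cKO library) and DEK (3 fl libraries) were profiled in about 20000 HSC, and their peaks enter here by removing regions and where they lie elsewhere in a domain's span. Whether the cells of a library came from 1 mouse or from several is not given in the sources used here.

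Each H3K27ac list comes from 1 library, so differences between the genotypes lack a replicate check and were not tested. The fl list holds 10494 peaks and the cKO list 16331. Read counts are not part of the lists, and the depth behind them is unknown. Of the 8280 regions away from gene ends, DEK peaks met 121, 136 and 535 in replicates 1 to 3 (264 ± 235, SD, n = 3), and H3K9ac peaks met 133 (fl) and 191 (cKO). The LSK label was read against genes of the gate: Kit, Cd34, Flt3, Cd48 and Procr had an H3K4me3 peak at a gene end in fl, while Ly6a, which encodes Sca-1, and Slamf1 had none in fl. In cKO, Kit, Cd34 and Flt3 had an H3K4me3 peak at a gene end, while Cd48, Procr, Ly6a and Slamf1 had none. Of 18 genes of mature blood cells, 2 had such a peak in fl and 3 in cKO, and of 12 endothelial, stromal, neuronal and liver genes none did in either. H3K27ac lay at an end of 0 of those 12 genes in fl and of 3 in cKO. It lay at an end of 1 of the 18 mature blood genes in fl and of 2 in cKO. Among the gate genes named here, it lay at an end of Flt3 in fl and of Kit, Cd34 and Flt3 in cKO.

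The stretches of DNA that the results turn on fall into 2 kinds, copies of repeated genes and starts of single genes, and 5 are shown to let a reader compare them. They are RefSeq windows of 300 bases (GRCm38.p6, the assembly of the mm10 coordinates) from 250 bases before to 50 after a transcript start, read 5′ to 3′ on the strand of the gene. They were chosen after the values were seen. The first belongs to Gm40367, inside the domain around Gm40365, at chr6:47662342-47662641 on the plus strand. The windows of its neighbours Gm36327 (chr6:47675332-47675631) and Gm40364 (chr6:47679657-47679956) are identical to it over 300 of 300 bases, so it is printed once, with no capitals. The second belongs to BC107364 (chr3:96452257-96452556, minus strand), and the capitals mark the core of a B box, the internal promoter element of transfer RNA genes, read on the opposite strand. The third is a start of Runx3 inside the gene (chr4:135152295-135152594, plus strand). The fourth is a start of Nfkb2 (chr19:46305445-46305744, plus strand), with 2 matches to the core of a kappaB motif in capitals, the second within the transcribed bases. The fifth is a start of Mllt10 inside the gene (chr2:18064335-18064634, plus strand). The windows of Runx3, Nfkb2 and Mllt10 lie whole inside an H3K27ac region of their domain, that of BC107364 lies there with 256 of its bases, and the Gm40367 window is in the span of the domain but not in a region.
Gm40367: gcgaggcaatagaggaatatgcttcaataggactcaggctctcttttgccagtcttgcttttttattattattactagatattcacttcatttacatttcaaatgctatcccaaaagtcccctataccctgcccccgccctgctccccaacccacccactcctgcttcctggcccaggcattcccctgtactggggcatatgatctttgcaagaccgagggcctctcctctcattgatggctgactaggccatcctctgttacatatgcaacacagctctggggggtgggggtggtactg
BC107364: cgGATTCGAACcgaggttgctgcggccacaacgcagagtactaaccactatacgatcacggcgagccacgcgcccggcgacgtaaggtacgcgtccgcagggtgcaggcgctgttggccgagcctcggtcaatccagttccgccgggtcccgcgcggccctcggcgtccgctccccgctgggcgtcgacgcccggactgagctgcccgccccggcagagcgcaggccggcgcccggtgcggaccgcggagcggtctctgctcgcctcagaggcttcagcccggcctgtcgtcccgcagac
Runx3: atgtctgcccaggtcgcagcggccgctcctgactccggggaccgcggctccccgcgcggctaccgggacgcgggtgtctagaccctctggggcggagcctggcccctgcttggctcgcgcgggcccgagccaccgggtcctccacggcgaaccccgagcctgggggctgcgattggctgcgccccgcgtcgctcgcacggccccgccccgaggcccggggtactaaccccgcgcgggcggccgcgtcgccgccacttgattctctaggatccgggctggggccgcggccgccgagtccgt
Nfkb2: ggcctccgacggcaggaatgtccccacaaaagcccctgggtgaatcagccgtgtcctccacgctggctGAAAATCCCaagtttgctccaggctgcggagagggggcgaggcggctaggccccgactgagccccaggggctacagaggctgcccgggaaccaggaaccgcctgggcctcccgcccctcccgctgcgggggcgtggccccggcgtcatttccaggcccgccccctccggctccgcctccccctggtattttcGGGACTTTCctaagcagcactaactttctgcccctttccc
Mllt10: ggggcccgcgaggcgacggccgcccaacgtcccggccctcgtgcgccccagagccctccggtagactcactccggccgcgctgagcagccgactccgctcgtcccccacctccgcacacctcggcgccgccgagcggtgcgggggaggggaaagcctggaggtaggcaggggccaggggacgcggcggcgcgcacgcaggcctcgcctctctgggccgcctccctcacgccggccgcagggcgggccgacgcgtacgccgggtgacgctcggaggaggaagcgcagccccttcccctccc

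Base composition set these windows apart. A CG pair occurred 46 times in the BC107364 window, 45 times in that of Runx3, 43 times in that of Mllt10 and 20 times in that of Nfkb2, where the median of all 31396 RefSeq windows was 7. The Gm40367 window held 3. Short motifs were looked for on both strands, and no motif searched contains another. The B box core GTTCGANTC was found in 0.172% of all windows, and of the 21 windows that overlap a domain region only that of BC107364 held it. The kappaB core GGGANTTTC was found in 1.13% of all windows and in 4 of the 21, namely 2 windows of Nfkb2 that overlap each other, 1 of the neighbouring RNA 4833438C02Rik and 1 of the non-coding RNA Gm32287. A RUNX motif (TGTGGT) was in 16.7% of all windows and in 4 of the 21, a GATA motif (AGATAA) in 11.2% and 1 of the 21, and an ETS motif (CCGGAAGT) in 3.95% and 0 of the 21. A match only says that these letters occur in the window.

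The domains lay on 15 chromosomes and spanned 3988 to 85581 bp (median 13037.5 bp). The median gap between neighbours within a domain was 3018.5 bp. At the edge of the rule, the widest gap that was joined was 12387 bp and the narrowest that kept a neighbour out was 13374 bp. Of the 30 domains, 16 overlapped a protein-coding gene. The other 14 lay between genes, 1552 to 1203021 bp from the nearest one (median 23911 bp). All 30 nearest genes were different, though Gm40363 was nearest to 1 domain and overlapped by another. The map of region positions shows that 1 domain is far longer and denser than the rest.

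**Figure D1:**
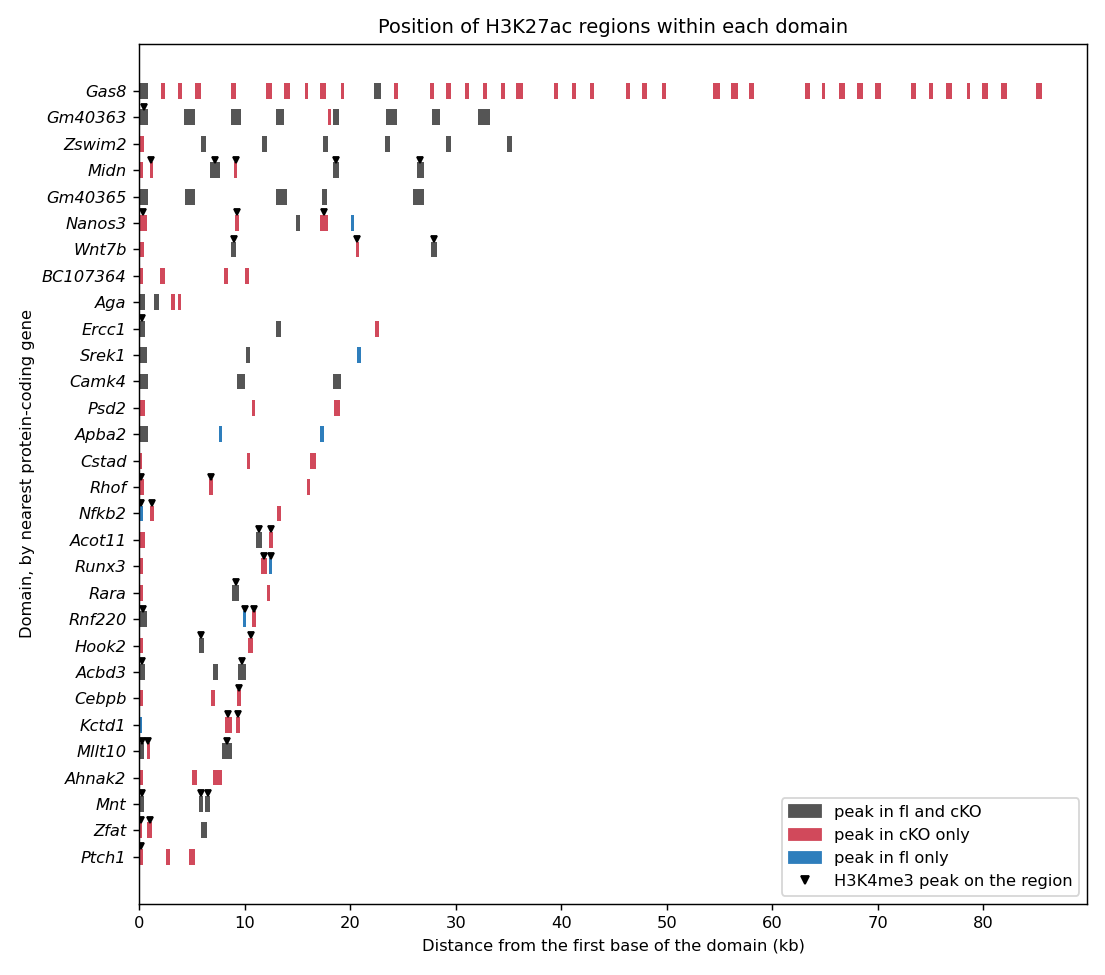
Position of each H3K27ac region (blocks, drawn to scale) within its domain, in kb from the first base of the domain, with 1 row per domain named by the nearest protein-coding gene and colours for peaks in both lists, in cKO only or in fl only; triangles mark regions with an H3K4me3 peak in fl or cKO. The Gas8 row holds 39 regions over 85581 bp, most of them cKO only and none with H3K4me3, while most other rows hold 3 regions.

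The domains were chosen by the presence and position of H3K27ac peaks of either list, so the presence of its regions in fl and cKO describes the choice and supports nothing further. The regions of the domains comprised 58 with an fl peak and 138 with a cKO peak. Per domain the median was 2 regions in fl and 3 in cKO. Among the 146 regions, 60.3% (88 regions) had a peak in cKO only, 34.2% in both and 5.48% (8 regions) in fl only, where the background over all distal regions was 32.9% cKO only, 53.6% in both and 13.5% fl only. Over all pooled regions, gene ends included, those shares were 41.5%, 51.3% and 7.24%. In 23 domains more regions had a cKO than an fl peak, in 5 the numbers were equal, and in 2 fl had more. Without the domain near Gas8 the cKO-only share was 47.7% (95% exact binomial interval 37.9 to 57.5, n = 107 regions). With both lists cut to equal length, 14 domains were left, of which 6 had more cKO regions, 4 more fl regions and 4 equal numbers. Without DEK replicate 3 among the lists that remove regions, there were 38 domains, 8 of them with more fl regions, and the fl-only share was 12.4%. Intervals here cover counting error only, and regions of a domain are not independent of each other.

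**Figure D2:**
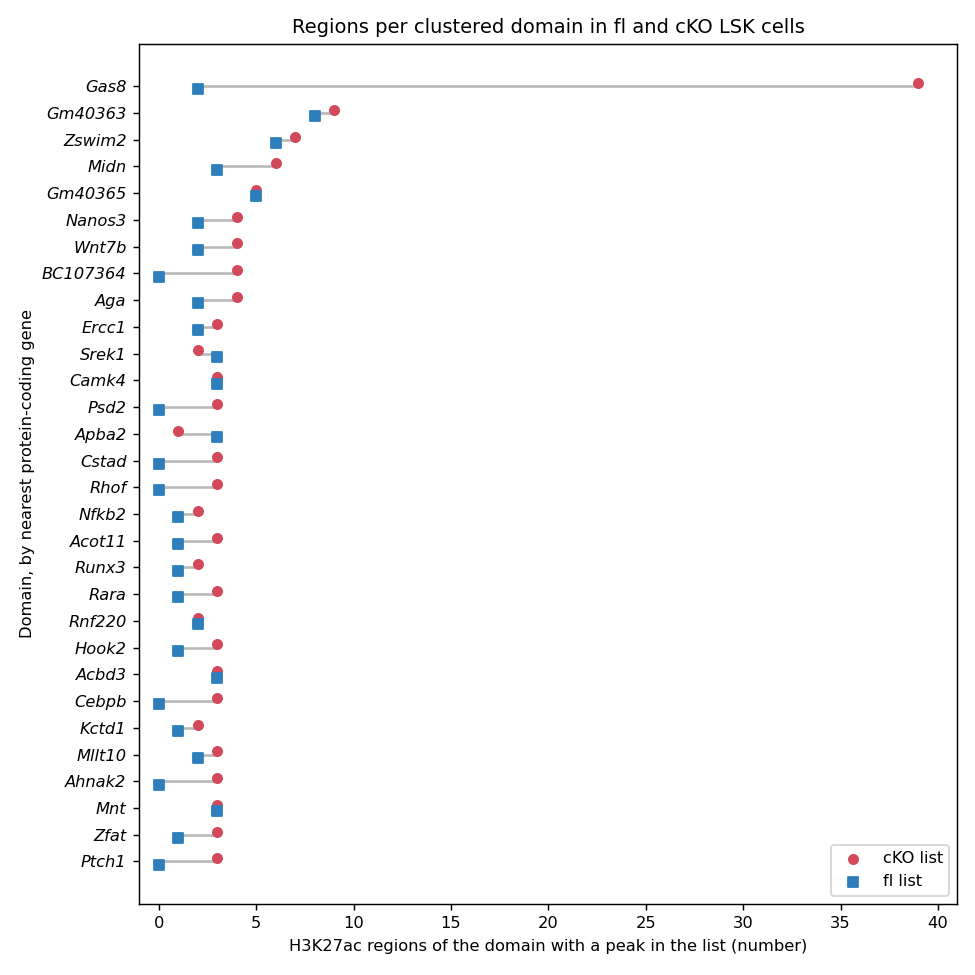
Number of H3K27ac regions of each domain (named by its nearest protein-coding gene) that have a peak in the fl list (squares) and in the cKO list (circles), joined by a line. Most lines are short, the Gas8 line runs from 2 regions in fl to 39 in cKO, and Srek1 and Apba2 are the 2 domains with more regions in fl.

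Each list on its own built fewer domains. The 5099 distal regions with an fl peak gave 9 domains of 37 regions, and the 6575 with a cKO peak gave 24 domains of 127 regions. In the pooled set, 9 domains had at least 3 regions with an fl peak, 24 had at least 3 with a cKO peak and 7 had both. No domain lacked a cKO peak. An fl peak was absent from 7 domains (BC107364, Psd2, Cstad, Rhof, Cebpb, Ahnak2 and Ptch1), and another 7 had a single one. In 4 domains (Gm40365, Camk4, Acbd3 and Mnt) every region had a peak in both lists.

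The domain with the most regions lay on a 5S ribosomal RNA gene array. It ran along chromosome 8 from 123538607 to 123624187, 1949 bp from Gas8, which encodes a subunit of the motile cilium, and held 39 of the 146 regions. All 39 had a cKO peak and 2 an fl peak. Within its span RefSeq places 48 ribosomal RNA genes of 119 to 121 bases, of which 40 are named as 5S genes (n-R5s) and 8 otherwise, Rn5s among them. The genes start every 1698 bp (median), and the regions every 1708 bp. An annotated copy was overlapped by 23 regions, 21 of them cKO only, and the other 16 lay between copies, 50 to 1538 bp from the nearest (median 78 bp).

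The fold enrichments used here are the authors' own values for each peak, relative to the background within that library, and serve only to describe and rank peaks of 1 list. In the cKO list the folds along the 5S array ran from 2.70 to 7.23 (median 3.79), with −log10 q of 13.1 to 57.9 (median 28.8). The 2 fl peaks were on the first and the eleventh region, at folds of 4.15 and 3.22, and the cKO folds at those places were 5.57 and 5.48. Low folds with clear q-values thus ran along the whole array in cKO. The array had no region with an H3K4me3 peak in either genotype, and no other distal region overlapped a gene named n-R5s.

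Counting the 5S array, 7 domains (Gas8, Gm40363, Zswim2, Gm40365, BC107364, Aga and Cstad) were set apart as repeat-type after their values were seen. A domain was so called where a region held a ribosomal, transfer or small nuclear RNA gene, where at least 2 regions of the group had the same fold and q in a list, or where it was 1 of the neighbouring pair on chromosome 6. Zswim2, Aga and Cstad met only the criterion of equal values. Equal fold and q also occurred between different domains, as in cKO for a region at Rara and one at BC107364 (fold 6.06). The name is thus a label, and whether Zswim2, Aga and Cstad lie on repeats was not tested. The 7 domains held 71 of the 146 regions. In the other 23 domains there were 75.

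The domain near Zswim2 (chromosome 2, 83954859 to 83990196) was an exact ladder. Its 7 regions were each 478 bp wide and started 5810 bp apart at every step, and 6 annotated pseudogenes lay in the span. In fl, 6 regions had a peak, with folds of 4.96, 5.51, 4.72, 4.72, 4.72 and 5.51 in order along the chromosome. In cKO all 7 did, with folds of 8.56, 9.17, 9.52, 8.58, 9.34, 8.88 and 8.88. Thus 5 fl and 2 cKO regions of this domain shared their fold and q with another of its regions.

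The domains around Gm40365 (chromosome 6, 47659508 to 47686452) and Gm40363 (47739989 to 47773181) are neighbours. The first overlaps 5 protein-coding genes of the same naming series (Gm40367, Gm40365, Gm36327, Gm40364 and Gm40363), 3 of which start with the identical sequence printed above. All 5 of its regions had a peak in both lists, at folds of 4.09 to 5.68 in fl and 4.75 to 7.15 in cKO. Of the 9 regions in the second, 8 had an fl peak (folds 4.57 to 6.76) and all 9 a cKO peak (folds 4.16 to 8.41). In contrast to the 5S array, both domains had nearly as many regions in fl as in cKO. In the second, 1 region had an H3K4me3 peak, in fl only. DEK replicate 3 had 1 peak in the span of the Gm40363 domain, outside its regions.

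The domain at BC107364 (chromosome 3, 96450121 to 96460514) lay in a group of small RNA genes. Its span holds 4 transfer RNA genes, among them the histidine tRNA genes n-THgtg7 and n-THgtg9, and 2 small nuclear RNA genes, Rnu1b6, a copy of the U1 RNA of the spliceosome, and LOC115489800. Each of the 4 regions held 1 of these 4 named genes. None had an fl peak, and in cKO the folds were 5.81, 6.11, 6.06 and 6.11, the second and the fourth being identical in fold and q. The BC107364 window printed above overlaps the second region, and its B box lies just beyond the edge of that region.

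Another 2 repeat-type domains remained. That nearest to Aga, a lysosomal enzyme gene 1203021 bp away, packed 4 regions into 3988 bp on chromosome 8 (52304674 to 52308661). Its first 2 regions had an fl peak, both at a fold of 3.62, and all 4 had a cKO peak, at folds of 2.94 to 3.17. The domain near Cstad (chromosome 2, 30677051 to 30693759) had no fl peak and 3 cKO peaks, at folds of 6.44, 6.44 and 10.2.

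Pooled over their 7 domains, the repeat-type regions had low median folds, and 1 of them had H3K4me3. Equal folds and q-values were part of how these domains were set apart, so their folds are a description only. In the fl list their median fold was 4.76 (3.22 to 6.76) and in the cKO list 4.36 (2.70 to 10.2). The other domains had medians of 7.10 (5.51 to 14.6) in fl and 8.09 (2.93 to 17.9) in cKO. The 5S array supplied 39 of the 71 repeat-type values in cKO, at a median of 3.79. Not each repeat-type domain was low there, since Zswim2 had a cKO median of 8.88. The cKO medians of Gm40363, Gm40365, BC107364, Aga and Cstad were 6.32, 5.05, 6.08, 3.08 and 6.44. Distal regions outside any domain had medians of 9.45 (3.46 to 21.2) in fl and 9.90 (2.77 to 22.8) in cKO. Within each list the domain regions of both kinds thus had lower median folds than regions outside domains. Ranked by q from the top of the cKO list, however, the pooled repeat-type regions stood higher, at a median rank of 29.9%, against 55.6% outside domains. Not each repeat-type domain did so. At Zswim2, BC107364, Aga and Cstad the best-ranked regions were at 10759, 13198, 12683 and 9744 of 16331 cKO peaks, all below the median outside domains. In the fl list the pooled repeat-type regions had a median rank of 57.0%, against 36.7% outside. H3K4me3 peaks lay on 1 of the 71 repeat-type regions (1.41%) and small RNA genes in 27 (38.0%). Of all 7453 distal regions outside domains 0.309% held a small RNA gene, and the 27 stood in 2 domains, the 5S array and that at BC107364.

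**Figure D3:**
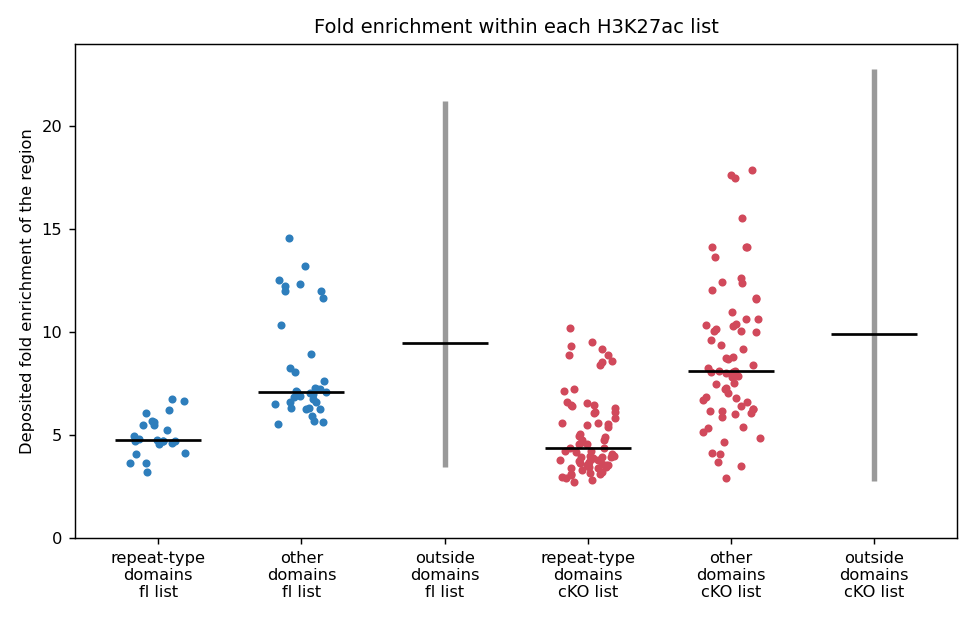
Deposited fold enrichment of H3K27ac regions within the fl list and within the cKO list; points are single regions of the 7 repeat-type domains and of the 23 other domains, black lines are medians, and grey bars give the range of distal regions outside domains. By median fold, the pooled repeat-type regions sit low in both lists, at 4.76 and 4.36 against 9.45 and 9.90 outside domains. The 5S array supplies 39 of their 71 cKO points, and the Zswim2 domain has a cKO median of 8.88.

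Regions of the other 23 domains carried H3K4me3 more often than distal regions elsewhere. H3K4me3 was measured in separate libraries and took no part in the rule. A peak of it in either genotype lay on 40 of the 75 regions (53.3%, interval 41.4 to 65.0), 39 in fl and 34 in cKO, against 17.0% (16.2 to 17.9) of distal regions outside domains. Groups of 2 regions had 27.5% and single regions 16.0%. Nearness to a transcript start moved with it: 28.0% of the 75 regions lay within 1 kb of a RefSeq transcript start, against 14.6% outside domains, and its part in the difference was not tested. Such a start lies inside a protein-coding gene or belongs to a non-coding RNA, since ends of protein-coding genes had been removed. The 75 regions were also more often inside a protein-coding gene, 56.0% against 42.0%. At least 1 H3K4me3 region was present in 18 of these 23 domains, and in 19 of all 30. Groups of 2 were not split by type, though 8 of their 644 regions held a small RNA gene and 10 had equal values within the group. The repeat-type domains were set apart after their values were seen. With them included, the H3K4me3 share of the 146 regions was 28.1% (21.0 to 36.1), close to that of groups of 2.

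Closely spaced peaks contributed to these groups. In 11 of the 30 domains, 12 neighbouring pairs of regions lay at most 1 kb apart, 155 to 783 bp, and in 6 of the pairs the neighbours differed in which lists held a peak. Where regions within 1 kb were joined before stitching, 21 domains were left and 19% of their regions had H3K4me3, against 28.1% (21.0 to 36.1) of all 146. The domains lost included those at Runx3, Nfkb2, Mllt10 and Mnt.

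**Figure D4:**
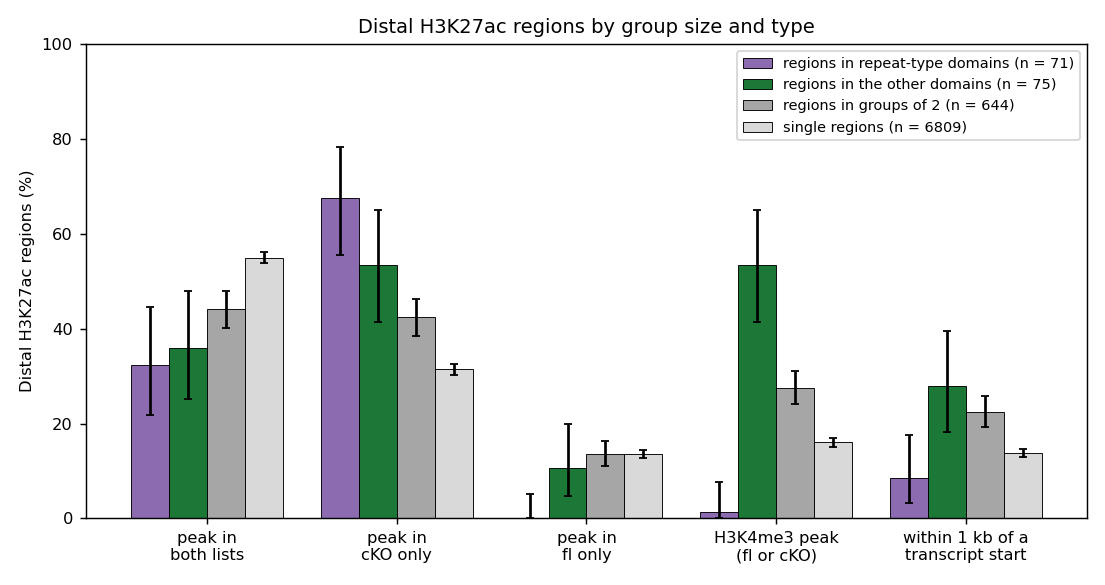
Percentage of distal H3K27ac regions with a peak in both lists, in cKO only or in fl only, with an H3K4me3 peak, and within 1 kb of a RefSeq transcript start, for repeat-type domains, the other domains, groups of 2 and single regions; bars start at 0 and whiskers are 95% exact binomial intervals for counting error. The H3K4me3 share is 1.41% in repeat-type domains, 53.3% in the other domains, 27.5% in groups of 2 and 16.0% in single regions. Over all regions in domains, which are not drawn, it is 28.1%.

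The domain with the highest single fold in fl was inside Camk4, which encodes calcium/calmodulin-dependent kinase IV, a kinase with a known part in stem cell maintenance. It lies on chromosome 18 from 33011485 to 33030569. Its 3 regions had a peak in both lists, at folds of 11.6, 14.6 and 13.2 in fl and of 14.1, 15.6 and 17.5 in cKO, and the regions were 720 to 850 bp wide. None had an H3K4me3 peak. The domain nearest to Srek1, a splicing factor gene 145388 bp away, had the next highest single fold in fl among domains (chromosome 13, 103572158 to 103593176). Its fl folds were 12.5, 12.0 and 8.08, and in cKO only the first 2 regions had a peak, at 14.1 and 17.6. The domain inside Apba2, a synaptic adaptor gene, was the other one with more regions in fl (chromosome 7, 64600176 to 64617709). Its fl folds were 12.2, 6.29 and 8.26, and the single cKO peak, on the first region, had a fold of 11.6. These 3 domains had no H3K4me3 region at all.

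At Midn, a gene for a protein that carries nuclear proteins to the proteasome, the domain ran across 3 genes. It lies on chromosome 10 from 80141362 to 80168320, and also overlaps Atp5d, which encodes a subunit of ATP synthase, and Cirbp, which encodes a cold-inducible RNA-binding protein. Of its 6 regions, 3 had an fl peak, at folds of 6.26, 7.02 and 5.91. All 6 had a cKO peak, at folds of 6.26, 6.85, 6.80, 4.11, 10.7 and 9.99. H3K4me3 lay on 5 of the 6 in both genotypes. DEK replicate 1 had 1 peak in this span, outside the regions.

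The domain near Nanos3, a germ cell gene 6981 bp away, lies on chromosome 8 from 84183534 to 84203860, close to microRNA genes. Mir23a lies 4657 bp from the domain, Mir27a 4811 bp, Mir24-2 4954 bp and Mir3074-2 4964 bp, and Mir181d lies 4746 bp from it on the other side. In blood cells the miR-23a cluster is known for favouring myeloid over B cell fate. The main mature products of that cluster are shown in RefSeq letters with the seed, bases 2 to 8, in capitals, because it lies beside a domain of 5 regions. Their seeds differ from each other.
miR-23a-3p: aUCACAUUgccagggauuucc
miR-27a-3p: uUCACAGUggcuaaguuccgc
miR-24-3p: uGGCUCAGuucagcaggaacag
Of the 5 regions, 2 had an fl peak, at folds of 7.29 and 5.70, and 4 a cKO peak, at 6.19, 8.03, 6.40 and 6.24. Only the third region had both. H3K4me3 lay on 3 of the 5 regions. Within 10 kb of the other domains, the single annotated microRNA gene was Mir7655, inside the Mllt10 domain.

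Near Wnt7b, which encodes a Wnt ligand and lies 43856 bp away, 4 regions spanned chromosome 15 from 85625678 to 85653900. The second lies at the start of the non-coding RNA D130051D11Rik, at a fold of 10.3 in fl and 17.9 in cKO, the highest fold of any domain region in cKO. The fourth was also shared, at 6.75 and 10.6, and the first and the third were in cKO only, at 7.02 and 6.00. At Ercc1, a DNA repair nuclease gene (chromosome 7, 19319819 to 19342514), the 3 cKO folds were 12.4, 13.7 and 10.3, and the first 2 regions had fl folds of 8.96 and 7.08. H3K9ac in cKO had 1 peak in this span, outside the regions.

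Of 70 haematopoietic transcription factor genes, 2 had a domain, Runx3 and Cebpb, where 37 of all 20665 protein-coding genes had one. Runx3 encodes a Runt-domain factor that acts in lymphoid and myeloid cells. Its domain (chromosome 4, 135140598 to 135153220) lies inside the gene, and the internal start printed above is in its second region. That region had a peak in cKO only, at a fold of 11.7, and the first region likewise, at 10.0. The third, 220 bp from the second, had a peak in fl only, at 5.51. The cKO peak of the second region covered this start, and the fl peak of the third did not overlap it. That fl peak was among the weakest of its list, at rank 10195 of 10494 by q (−log10 q of 4.69). Each genotype has 1 library here. H3K4me3 lay on the second region in fl and on the third in both genotypes.

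Cebpb encodes C/EBPβ, a factor of stress granulopoiesis. The domain nearest to it (chromosome 2, 167768113 to 167777716) lies 77680 bp away. Its 3 regions had no fl peak, and cKO folds of 7.22, 9.17 and 8.25. The third region lies at starts of the non-coding RNAs Gm14321 and Gm32287, and had an H3K4me3 peak in fl only.

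Nfkb2, which encodes the p100/p52 subunit of NF-kappaB, was named after its values were seen (chromosome 19, 46304405 to 46317853). Its first 2 regions covered different starts of the gene, at 46304737 and 46305695. An fl peak lay on the first region alone, at a fold of 7.16. The second region, 656 bp away and over the start with the kappaB matches printed above, had a cKO peak alone, at 7.55, and the third had a cKO peak at 8.09. Both regions at the starts carried H3K4me3 in both genotypes. Mllt10, which encodes AF10, a partner of the H3K79 methyltransferase DOT1L, had a domain with H3K4me3 on all 3 regions in both genotypes (chromosome 2, 18056275 to 18065065). Its folds were 6.89 and 7.22 in fl for the first and the third region, and 10.4, 5.34 and 8.67 in cKO.

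Further domains were without an fl peak. Psd2, an ARF exchange factor gene, had its nearest domain on chromosome 18 from 35919861 to 35938842, with cKO folds of 10.0, 8.39 and 12.4 and no H3K4me3. The domain over Rhof and Setd1b, an H3K4 methyltransferase gene, had cKO folds of 10.2, 8.06 and 8.13 (chromosome 5, 123132147 to 123148318). Its first 2 regions carried H3K4me3 in both genotypes, so H3K4me3 was listed there in fl without H3K27ac. Ptch1, the Hedgehog receptor gene, had cKO folds of 5.38, 4.06 and 4.65, and Ahnak2 had 3.50, 2.93 and 3.68.

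Domains were rare over all genes. Over all 20665 protein-coding genes on chromosomes 1 to 19, 37 were nearest to a domain or overlapped by one. Of these, 2 were in a gene list, Runx3 and Cebpb. At so small a share, a list without such a gene says little. Of all 20665 genes, 21.4% were nearest to or overlapped by at least 1 distal region. The largest group was of 2 regions for 338 of the 20665. Of the 70 transcription factors, 45 (64.3%) had such a distal region, and in 7 (Gata2, Ldb1, Meis1, Pax5, Nfia, Nfix and Hoxa9) the largest group was of 2 regions, just under the rule. Cell cycle and quiescence genes had a distal region in 59.1% and a largest group of 2 at Cdkn1b, Cdk6, Nr4a2 and Mcl1. The immediate early genes Fosb and Junb of this list were each nearest to 1 region of a domain, that near Ercc1 and that at Hook2, without being the nearest gene of the whole domain. Chromatin and corepressor genes had one in 46.2%, with such groups at Tbl1xr1, Dnmt3a, Dot1l, Arid1a and Kdm6b. None of these lists but the first, and none of the 9 others (receptors, surface and homing genes, signalling, myeloid, lymphoid, erythroid and megakaryocyte, endothelial and stromal, other tissues, housekeeping), held a gene that a whole domain was nearest to or overlapped. A distal region was also more frequent than over all genes in 5 of the 9. These were surface and homing (41.2%), endothelial and stromal (39.1%), receptors (32.3%), signalling (28.8%), and erythroid and megakaryocyte (23.8%). Myeloid (18.2%), housekeeping (14.3%), other tissues (13.0%) and lymphoid (4.17%) genes had lower shares.

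Acetylation at the ends of the nearest genes comes from the same libraries, and the rule removed regions at gene ends. The shares below are therefore shaped by the rule and are a description only. Of the 30 nearest genes, 4 (13.3%, interval 3.76 to 30.7) had an H3K27ac peak at an end in fl and 12 (40.0%, 22.7 to 59.4) in cKO, where over all genes the shares were 22.9% and 44% respectively. Both lists had it at Gm40363, Srek1, Cstad and Acbd3. It was in cKO only at 8 (26.7%), namely Gm40365, Rhof, Rnf220, Cebpb, Kctd1, Ahnak2, Mnt and Zfat, against 21.5% of all genes, and in fl only at none, against 0.392%. At 18 of the 30 no end was marked in either list. H3K4me3 at an end was present at 11 in fl and 10 in cKO (36.7% and 33.3%), against 45.1% and 44% of all genes. The share over all genes lies inside the counting interval of each of these shares. The 4381 genes nearest to distal regions outside domains had shares close to those of the 30. H3K27ac lay at an end of 15.3% of the 4381 in fl and 37.1% in cKO, and H3K4me3 of 35.0% and 34.1%. With no window around gene ends, the domains had 74 nearest genes. H3K27ac lay at an end of 23.0% of those 74 in fl and 70.3% in cKO.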

How the data were processed

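CUT&Tag, in which an antibody guides a transposase to tag nearby DNA, was read as 1 peak list per library, 9 in all. The submitters' processing notes name the mm10 genome, Bowtie2, MACS2 and Picard. Not given in the sources used here are versions, the calling threshold and the handling of reads that match several places. The deposited fold is a ratio over background within a library, and each deposited −log10 q and −log10 p (of a q-value or p-value) comes from the authors. The deposited score repeats −log10 p, scaled up and cut to whole numbers.

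Coordinates are mm10, counted from 1. Overlap meant at least 1 bp. Genes were the 21887 protein-coding ones of RefSeq GRCm38.p6, in a table without strand, so both gene ends were used. In the DEK lists 11 irregular rows were left out. Row names of DEK replicate 3 carry another stem than those of replicates 1 and 2, and its label was followed. The result of 1 gene of the gate is not reported here. The rule was checked on simulated regions and against bedtools 2.31.1. Other tools were matplotlib 3.10.9, scipy 1.17.1, pandas 2.3.3, numpy 2.4.6 and Python 3.11.15.

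The members and the 12 gene lists (412 of 421 genes found) were chosen with earlier results of these data known. Named domains were the 12 with most regions, the 6 with the greatest excess of cKO regions, up to 6 the other way, and those at list genes. Others were named after their values were seen. No test between genotypes was possible, since each has 1 library per mark. Of 21 alternatives, 3 were chosen after seeing the data: leaving out the largest domain, leaving out the repeat-type domains, and joining regions within 1 kb first.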

Additional observations from a re-analysis of the deposited data

Results flagged for a closer look

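The same rule was applied to the sex chromosomes, which the domains above do not cover. It gave 3 domains on chromosome X and 1 on chromosome Y. The domain near Bcor, a BCL6 corepressor gene, held 3 regions, 1 with an fl peak and 3 with a cKO peak (chromosome X, 11998956 to 12007392). The domain near Slc6a14, an amino acid transporter gene, held 3 regions, 2 with a peak in each list (22016091 to 22037603). The domain near Mid1, a ubiquitin ligase gene, held 4 regions, 2 with an fl and 4 with a cKO peak (169996868 to 170019302). The domain near Gm52481 on chromosome Y held 8 regions, 2 with an fl and 8 with a cKO peak (90765337 to 90807679). H3K4me3 was on none of these regions. They were set apart because they are signal outside the chromosomes described, and no control library without antibody was analysed here.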

How the results depend on the processing

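The number of domains, 30, was 7 with stitching at 5 kb, 74 at 25 kb, 352 with at least 2 regions, 9 with at least 4, 74 with no window around gene ends, 14 with lists of equal length and 18 with ends of all gene types. The cKO-only share, 60.3%, was 76.6% at 5 kb, 51.4% at 25 kb, 45.7% with at least 2 regions, 50% with equal lists, 50.3% with DEK and H3K9ac regions kept, 42.4% with all gene types and 47.7% without the largest domain. The fl-only share, 5.48%, was 1.56% at 5 kb, 12.0% and 1.20% with at least 2 and 4 regions, 14.4% with equal lists, 12.4% with DEK and H3K9ac regions kept and 10.7% without repeat-type domains. The H3K4me3 share, 28.1%, was 7.81% at 5 kb, 14.5% with at least 4 regions, 19.7% and 45.9% with a window of 2.5 kb and 0, 17.8% with equal lists, 37.9% with all gene types, 38.3% without the largest domain, 53.3% without repeat-type domains and 19% with regions within 1 kb joined first. The share of nearest genes with cKO H3K27ac at an end, 40%, was 22.2% with at least 4 regions and 70.3% with no window. The cause of these moves was not tested. Leaving out DEK replicate 1, 2 or 3 gave 30, 31 and 38 domains, and an fl-only share of 5.48% to 12.4%. Under the alternatives run, the other values stayed within the counting interval of the share given first, or within 1.5 times the count. That held for 13 of 20 alternatives for the number of domains, and for 21 of 21 for the fl gene-end share. No paired analysis was possible because each genotype has 1 library per mark. The depth of the lists is unknown, and read matches in repeated DNA could not be checked from peak lists.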
